A study of Mus musculus with 4 samples.

Results

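The values below describe Olfr1507, Olfr1508 and Olfr1509, a row of 3 odorant receptor genes on mouse chromosome 14, and the olfactory sensory neurons (OSNs) that express them. They are 3 of the 1430 receptor genes counted. The genes were listed by name because they lie next to the H element, and their neurons were taken from the deposited receptor identities. These gave 83 of the 9791 mature OSNs that carry an identity. The receptor that gave a neuron its identity had to exceed 8.284 unique molecular identifiers (UMIs) per 10000 UMIs of the cell, with no second receptor above that limit. A UMI tags 1 captured transcript, so that amplified copies are counted once.

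The study profiled the main olfactory epithelium of 4 male C57BL/6 mice (C57BL/6J in the study's methods) aged 8 weeks, at rest, with no treatment and a single group. The tissue was dissociated with papain, living nucleated cells were sorted as Hoechst-positive and DRAQ7-negative, and each mouse gave 1 droplet library with the 10x Genomics 3′ v3.1 chemistry. The mouse was the replicate (n = 4). The comparisons run between neurons of different receptors within these mice, and they address how far neurons that differ in their receptor also differ in other genes.

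A mature OSN expresses 1 receptor gene out of a very large family, from 1 of its alleles, and the neurons that share a receptor send their axons to the same glomeruli of the olfactory bulb. Enhancers near receptor clusters take part in that choice. The H element is the best studied of them. It lies beyond Olfr1507 at the edge of the cluster, and the receptors nearest to it, long known as MOR28, MOR10 and MOR83, are those whose expression is lost when the element is deleted. Olfr1507 is the nearest to the element, followed by Olfr1508 and Olfr1509. The enhancer itself was not measured in these data.

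In the GRCm38 annotation (GENCODE M21), Olfr1507 spans chr14:52488791-52495749 on the minus strand, Olfr1508 spans chr14:52458829-52467495 on the minus strand, and Olfr1509 spans chr14:52442990-52452574 on the plus strand. The gap between Olfr1507 and Olfr1508 was 21.295 kb and that between Olfr1508 and Olfr1509 was 6.254 kb, and the next receptor, Olfr1510, began 28.616 kb further on. Each receptor is coded by 1 exon, of 942, 933 and 927 coding bases. The coding sequences of Olfr1507 and Olfr1508 were identical at 92.1% of aligned positions, whereas Olfr1509 matched Olfr1507 at 63.6% and Olfr1508 at 64.3%. A stretch of 120 coding bases near the end of each coding sequence shows this kinship. It is printed in the direction of the gene, with capitals at the bases that differ from both of the other sequences.
Olfr1507, chr14:52490055-52490174, minus strand: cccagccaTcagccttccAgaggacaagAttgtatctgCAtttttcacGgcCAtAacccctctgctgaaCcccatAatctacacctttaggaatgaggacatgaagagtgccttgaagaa
Olfr1508, chr14:52463100-52463219, minus strand: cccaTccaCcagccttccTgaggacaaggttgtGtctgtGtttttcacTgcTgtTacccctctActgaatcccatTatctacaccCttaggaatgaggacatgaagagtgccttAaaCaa
Olfr1509, chr14:52451194-52451313, plus strand: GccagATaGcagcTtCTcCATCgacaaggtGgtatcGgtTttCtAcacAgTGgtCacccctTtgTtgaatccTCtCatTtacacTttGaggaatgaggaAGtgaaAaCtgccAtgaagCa
In this stretch Olfr1507 and Olfr1508 differed at 17 bases, Olfr1507 and Olfr1509 at 38, and Olfr1508 and Olfr1509 at 40. The transcripts of Olfr1507 and Olfr1508 had 167 runs of 50 bases in common. The nearest of them lay 1380 bases from the annotated 3′ end of Olfr1507 and 4387 bases from that of Olfr1508, and Olfr1509 shared none with either. This chemistry reads the 3′ ends of transcripts, and the authors redrew the 3′ ends of receptor genes before they counted reads, so the annotated ends given here may differ from those counted.

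The libraries held 4746 to 6003 cell barcodes and 23157467 to 32382702 UMIs. Between 4 and 14 barcodes were found in both libraries of a pair of mice, and 0 of the 83 neurons were among them. The library of mouse 2 stood apart in another way. Pairs of receptors with over 5 UMIs each that recurred in 2 or more barcodes of the same library numbered 38 in mouse 2 and 3 in each other mouse, and 66 of its 146 barcodes with at least 2 such receptors (45.2%) belonged to them, against 7.94% to 15.0% in the other mice. The barcodes that recurred with Olfr1507 or Olfr1509 differed from each other at 13 or 15 of 16 bases. Whether such barcodes held the same cells was not tested, so results are also given without mouse 2. Without mouse 2 the neurons numbered 32 for Olfr1507, 9 for Olfr1508 and 21 for Olfr1509.

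The 83 neurons carried the markers of mature OSNs. The authors had typed these cells by high Omp, Cnga2 and Gng13 without Gap43, so this is no independent result. The summed level of Omp, Adcy3, Cnga2, Gng13 and Stoml3 averaged 380 UMIs per 10000 UMIs of the cell in Olfr1507 neurons, 270 in Olfr1508 neurons and 321 in Olfr1509 neurons, against 267 in neurons of other receptors. Within the sum, Omp was lower in Olfr1508 and Olfr1509 neurons, at 66.7 and 72.8 against 76.1. Gng13 was lower in Olfr1508 neurons (82.3 against 89.1) and Cnga2 in Olfr1509 neurons (7.04 against 7.49). All other values of these genes were higher than in neurons of other receptors. The 4 markers of globose basal cells were at 0 in all 3 populations, and so were Krt5 and Trp63 of horizontal basal cells and Cyp2g1 of sustentacular cells. Markers of immediate neuronal precursors summed to 7.84, 10.3 and 5.58 UMIs per 10000 in the 3 populations and 4.99 in neurons of other receptors, with Neurog1 and Neurod1 at 0 in all 3, in a list that holds Lhx2, which mature OSNs also express. Markers of immature OSNs summed to 17.5, 18.5 and 14.6 against 18.7, and those of horizontal basal, sustentacular, microvillar, immune and blood cells to at most 0.755 in each population. Ncam1 made up most of the immature sum. Within that list Gap43 was at 0.893 in Olfr1507 neurons, 0.0940 in Olfr1508 and 0.122 in Olfr1509 neurons, against 0.144 in the others. Gng8 was also higher in Olfr1507 neurons (0.0622 against 0.0311), whereas Stmn2, Dpysl3 and Ncam1 were lower there than in the others. The labels name 4 mice and say nothing more about how they are related. No doublet caller was applied here. A neuron with a second receptor above the limit has no identity, so that the 83 neurons hold none by the rule that chose them.

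The first comparison was of the number of neurons that chose each receptor. Olfr1507 and Olfr1509 formed larger populations than Olfr1508. Olfr1507 neurons numbered 7, 10, 7 and 18 in mice 1 to 4, which was 0.260%, 0.427%, 0.398% and 0.600% of the mature OSNs with an identity (mean 0.421% ± 0.140, SD, n = 4). Olfr1509 neurons numbered 12, 9, 5 and 4, or 0.446%, 0.384%, 0.284% and 0.133% (mean 0.312% ± 0.137, SD, n = 4). Olfr1508 neurons numbered 6, 2, 0 and 3, or 0.223%, 0.0854%, 0 and 0.10% (mean 0.102% ± 0.0919, SD, n = 4), and the 0 of 1759 neurons in mouse 3 allows a share of up to 0.171%. Without mouse 1 the Olfr1508 mean was 0.0618%. The shares of Olfr1507 and Olfr1509 overlapped. Mouse 4 had the highest share of Olfr1507 neurons and the lowest of Olfr1509 neurons, and mouse 1 the reverse. Together the 3 receptors took 0.835% ± 0.110 of the neurons (SD, n = 4). Of 960 receptor populations, 18 were larger than that of Olfr1507, 46 were larger than that of Olfr1509 and 282 were larger than that of Olfr1508, and the median population had 7 neurons.

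**Figure D1:**
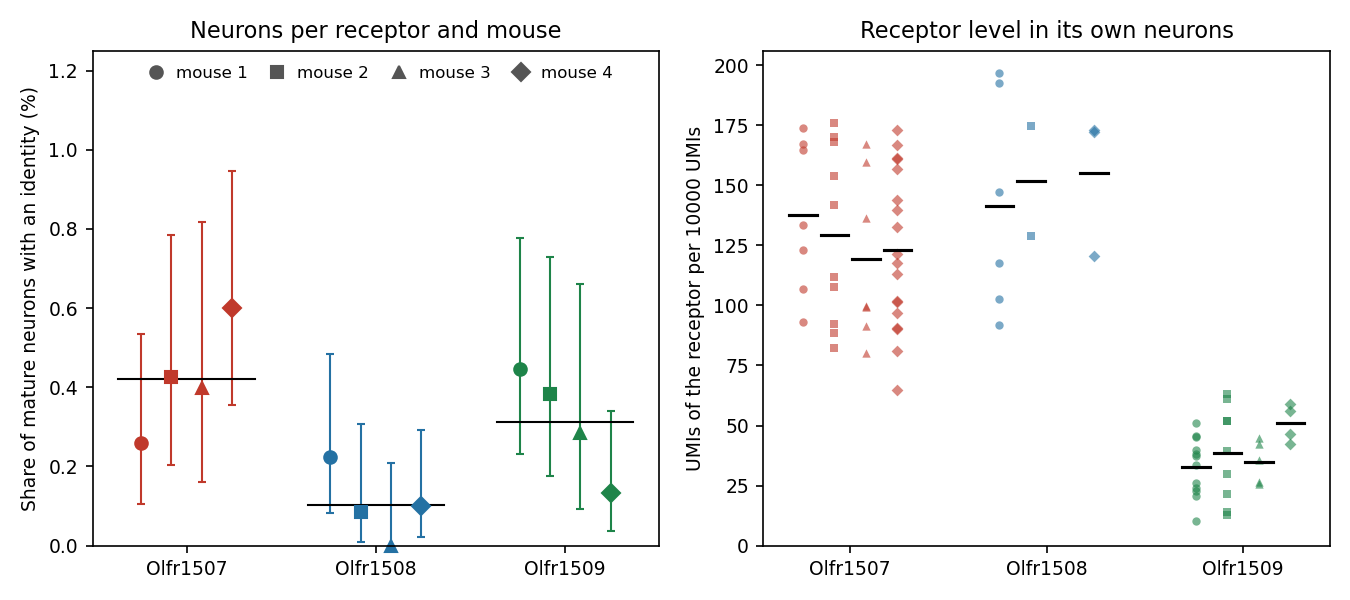
Left, share of the mature OSNs with an identity (%) that carried each receptor, with 1 symbol per mouse, exact binomial 95% intervals and a line at the mean of 4 mice. Right, UMIs of the receptor per 10000 UMIs in each of its own neurons, with a line at the mean of each mouse. Olfr1508 was the rarest receptor in each mouse, and Olfr1509 neurons reached 63.2 at most while Olfr1507 neurons began at 64.9.

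Olfr1507 neurons outnumbered Olfr1508 neurons in 4 of 4 mice, by 0.319 ± 0.199 percentage points (SD, n = 4), and Olfr1509 neurons also outnumbered Olfr1508 neurons in 4 of 4 mice, by 0.210 ± 0.122 points (SD, n = 4). Flipping the sign of each mouse's difference (exact sign-flip test, two-sided here and throughout) gave p = 0.125 for each, the smallest value that 4 mice allow, or 0.1875 after adjustment over the 3 pairs of receptors. Olfr1507 and Olfr1509 differed by 0.109 ± 0.270 points, with Olfr1507 higher in 3 of 4 mice (exact sign-flip test, p = 0.625). That order rested on mouse 4, without which the means were 0.362% for Olfr1507 and 0.372% for Olfr1509. With mouse 2 left out, the mean shares of Olfr1507, Olfr1508 and Olfr1509 were 0.419%, 0.108% and 0.288%. The middle gene of the row thus had the smallest population. In the 3 neighbours on the far side of Olfr1509, the populations numbered 13 for Olfr1510, 17 for Olfr1511 and 10 for Olfr1512. The first and second of these are 97.3% identical, so that reads can be lost or shared between them when they are counted.

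The receptors also differed in how many transcripts their own neurons held. Olfr1507 and Olfr1508 neurons carried several times as many receptor UMIs as Olfr1509 neurons. The mean level of Olfr1507 in its neurons was 137, 129, 119 and 123 UMIs per 10000 in mice 1 to 4 (mean 127 ± 7.97, SD, n = 4). Olfr1508 was at 141, 152 and 155 in mice 1, 2 and 4 (mean 150 ± 7.25, SD, n = 3). Olfr1509 was at 32.9, 38.4, 34.9 and 50.9 (mean 39.3 ± 8.10, SD, n = 4), so that its highest mouse lay below the lowest mouse of either other receptor. Single neurons ranged from 64.9 to 176 for Olfr1507, from 91.8 to 197 for Olfr1508 and from 10.4 to 63.2 for Olfr1509, and the Olfr1509 range overlapped neither of the others. The lower end of the Olfr1509 range is near the identity limit of 8.284, below which a neuron would not have been assigned.

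The level of Olfr1507 was 3.28-fold that of Olfr1509 (2.41 to 4.18 in the mice), and that of Olfr1508 was 3.73-fold (3.05 to 4.30). Exact sign-flip tests of the log2 ratios gave p = 0.125 with 4 mice and p = 0.25 with the 3 mice that had Olfr1508 neurons, again the smallest values possible, and 0.25 after adjustment over the 3 pairs. The median depth of the neurons was 5745, 4804 and 6660.5 UMIs, lowest for Olfr1508 and highest for Olfr1509. In raw UMIs the median neuron held 69.5, 58.0 and 27.0 UMIs of its receptor. Leaving out mouse 2, the mean levels were 127, 148 and 39.6 UMIs per 10000. Olfr1508 exceeded Olfr1507 by 1.15-fold on the scaled values (exact sign-flip test, p = 0.25, 3 mice), and in raw UMIs the log2 ratio was −0.03. Among 353 populations of at least 10 neurons, whose median level was 83.7 UMIs per 10000, 82 lay above Olfr1507, 50 above Olfr1508 and 306 above Olfr1509. Receptor levels were not divided by transcript length, since each captured transcript gives 1 UMI. The transcripts in the reference annotation extend 1230, 4246 and 1233 bases beyond the coding sequence in Olfr1507, Olfr1508 and Olfr1509. Whether the capture of their 3′ ends differs was not tested.

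The deposited clustering of mature OSNs, made without receptor genes, placed the 3 populations in 2 different clusters. Of 42 Olfr1507 neurons, 39 lay in the Calb2+ ventral cluster and 3 in the main Ventral cluster, with 2 of these 3 in mouse 3 and 1 in mouse 4. All 11 Olfr1508 neurons and all 30 Olfr1509 neurons lay in the main Ventral cluster. Olfr1507 made up 7.20% of the 542 neurons of the Calb2+ ventral cluster, where 2 of the 87 populations were larger, while Olfr1508 and Olfr1509 made up 0.239% and 0.652% of the 4600 neurons of the Ventral cluster. Of the next receptors, Olfr1510 had 8 of 13 neurons in the Dlg2+ dorsal cluster and 4 in the main Dorsal cluster. Olfr1511 had 9 of 17 and 6 in these clusters. Olfr1512 had 6 of 10 in the Dlg2+ dorsal and 4 in the Dlg2+ ventral cluster. Clusters were built from the genes of these same cells, so this is a description.

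Most transcripts of the 3 receptors were found in their own neurons. Over all 21809 barcodes, Olfr1507 had 3670 UMIs, Olfr1508 had 1045 and Olfr1509 had 995, and the neurons with the identity held 81.8%, 84.0% and 78.9% of them. Immature neurons held most of the rest. For Olfr1507, 7.14% of the UMIs were in 9 cells of the later immature stage (iOSN2) and 2.78% in 7 cells of the earlier stage (iOSN1). For Olfr1508, a single iOSN2 cell held 130 UMIs, or 12.4%, and for Olfr1509, 4 iOSN2 cells held 104 UMIs and 1 iOSN1 cell held 21.

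The onset of expression was then compared between stages. OSNs arise from globose basal cells by way of immediate neuronal precursors and the immature stages, during which a receptor is chosen. None of the 3 receptors was detected in 202 globose basal cells, which allows a share of up to 1.49%, and a single UMI was found in 284 immediate neuronal precursors. Cells were thinned to 5000 UMIs so that stages of unequal depth could be compared, which left out 178 of 1006 iOSN2 cells, 184 of 866 iOSN1 cells, 863 of 1768 Mv2 cells and 5536 of 10519 mature OSNs. Mv2 cells are microvillar cells, which should lack receptors and were taken as the background. The HBC2 group of horizontal basal cells is given beside them, with 151 of 544 cells left out by thinning. At that depth, any of the 3 receptors was detected in 0.994% ± 0.834 of iOSN1 cells, 1.48% ± 0.681 of iOSN2 cells, 1.51% ± 0.636 of mature OSNs and 0.0877% ± 0.175 of Mv2 cells (SD, n = 4). In HBC2 cells the mean share was higher than in Mv2 cells, at 0.529% ± 0.453 (SD, n = 4). Whether the background differed between these 2 cell types was not tested. Without thinning, at median depths of 6830.5, 7301.5, 4861 and 5081 UMIs, 9 of 866, 14 of 1006, 107 of 10519 and 3 of 1768 cells were positive. Among HBC2 cells, at a median depth of 7186.5 UMIs, 4 of 544 were positive, with a single UMI each.

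Olfr1507 was found in 0.801% ± 0.621 of iOSN1 cells and 0.889% ± 0.308 of iOSN2 cells after thinning, and in none of the Mv2 cells (SD, n = 4). Its share in HBC2 cells was 0.326% ± 0.466 (SD, n = 4). In the unthinned libraries the positive iOSN2 cells numbered 2, 3, 3 and 1 in mice 1 to 4 and the positive iOSN1 cells 4, 2, 1 and 0. Olfr1509 was at 0.115% ± 0.229 in iOSN1 and 0.494% ± 0.433 in iOSN2, and Olfr1508 at 0.0788% ± 0.158 and 0.0969% ± 0.194, near its 0.0877% in Mv2 cells (SD, n = 4). The iOSN2 share of any member exceeded that of Mv2 by 1.39 points in 4 of 4 mice (exact sign-flip test, p = 0.125, the smallest possible, and 0.667 after adjustment over 16 comparisons). The immature stages were not tested against HBC2 cells. The iOSN1 and iOSN2 stages differed by 0.485 ± 0.610 points, with iOSN2 higher in 3 of 4 mice (exact sign-flip test, p = 0.25), which is within the spread between mice. The 3 receptors were not tested against each other in their timing.

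The immature cells fell into those with a single UMI and those with a large amount of the receptor. Of 23 immature cells with any of the 3 receptors, 6 had a single UMI, and the other 17 had 9 to 130. Olfr1507 was the highest receptor in 3 iOSN1 cells, with 13, 27 and 50 UMIs, and in 5 iOSN2 cells, with 21 to 57 UMIs. The median level was 38.2 UMIs per 10000 in these iOSN1 cells and 66.8 in these iOSN2 cells, below the 119 to 137 of its mature neurons in the mice. The Olfr1508 cell was at 119 UMIs per 10000. Among cells whose highest receptor had over 1 UMI, Olfr1507 was the highest in 0.448% of 669 iOSN1 cells (exact 95% interval 0.0926% to 1.30%), 0.511% of 979 iOSN2 cells (0.166% to 1.19%) and 0.429% of 10247 mature OSNs (0.312% to 0.576%). These shares pool the cells of the 4 mice, the 3 iOSN1 cells came from mice 1 and 3, and the stages were not tested against each other. Intervals and limits of this kind cover counting error only.

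Some immature cells with a member held a second receptor at a high level. In mouse 3, an iOSN2 cell of 22755 UMIs held 68 UMIs of Olfr536 and 49 of Olfr1507, and in mouse 1 another held 46 UMIs of Olfr1507 and 15 of Olfr716. In mouse 2, 2 iOSN2 cells held Olfr1256 with Olfr1509, at 28 and 24 UMIs in one and 44 and 28 in the other. An iOSN1 cell and an iOSN2 cell of the same mouse held the same 3 receptors, with 76 and 46 UMIs of Olfr676, 14 and 12 of Olfr610 and 9 in each of Olfr1507. These 4 cells are among the recurring combinations of that library. Without mouse 2, the cells with a member were 6 iOSN1 and 9 iOSN2 cells.

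Co-detection of the 3 neighbours in 1 cell was examined next. No barcode held transcripts of more than 1 of them. A UMI of at least 1 member was present in 161 of 21809 barcodes, and 0 of the 161 had a second member, which allows a share of up to 1.86%. Without mouse 2 this was 0 of 113. With Olfr1510, Olfr1511 and Olfr1512 added, 227 barcodes had at least 1 of the 6 receptors and 1 barcode had 2. The barcodes were 83 neurons with the identity, 24 other mature OSNs, 23 immature neurons and 31 other retained cells or removed barcodes, and in 48 the member was present as a single UMI.

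**Figure D2:**
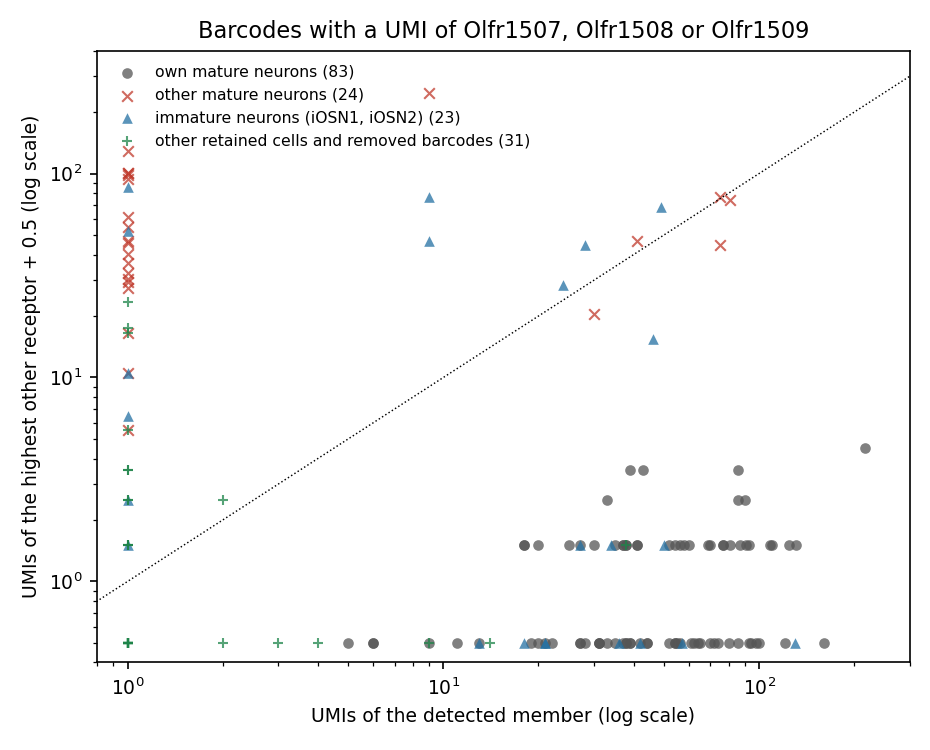
UMIs of the member (horizontal, log scale) and UMIs of the highest other receptor plus 0.5 (vertical, log scale) in each of the 161 barcodes with a UMI of Olfr1507, Olfr1508 or Olfr1509, and the line of equal values without the 0.5. The 83 own neurons lie at 5 to 217 UMIs of the member and at most 4 UMIs of another receptor, and 48 barcodes with a single UMI form the column at the left.

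In their own neurons, 0 of 42 Olfr1507 neurons, 0 of 11 Olfr1508 neurons and 0 of 30 Olfr1509 neurons had a UMI of either neighbour, which allows shares of up to 7.14%, 27.3% and 10.0%. Among all other mature OSNs, Olfr1507 was detected in 14 of 10466 (0.134%), Olfr1508 in 6 of 10466 (0.0573%) and Olfr1509 in 4 of 10447 (0.0383%), so that a value of 0 in these small populations was within the background. The next receptor gene on each side, where it lay within 100 kb, was counted in the same way for every population. This comparison was added after the data had been seen. None of the 83 neurons held such an adjacent receptor, which allows up to 3.61%, against 374 of 9451 neurons of other receptors (3.96%). The difference averaged −4.09 ± 0.983 points over the mice (SD, n = 4), and since the members were known to hold no such neuron it is given without a test. Of 338 other populations with at least 10 neurons, 252 (74.6%) likewise had none.

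A few mature OSNs without an identity held a member beside an unrelated receptor. In mouse 4 these were a neuron with 81 UMIs of Olfr1507 and 74 of Olfr679, one with 75 of Olfr1507 and 44 of Olfr354, and one with 30 of Olfr1509 and 20 of Olfr124. Mouse 2 had a neuron with 75 UMIs of Olfr1507 and 76 of Olfr1123, and mouse 1 had one with 41 of Olfr1509 and 46 of Olfr1259. In mouse 3, a neuron with 247 UMIs of Olfr672 held 9 of Olfr1508. The 6 cells held 9327 to 15074 UMIs in total, above the medians of 4804 to 6660.5 in the neurons with an identity. Whether they were doublets was not tested.

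Low levels of other receptors were found in the members' own neurons, and 1 pseudogene recurred. By the rule of identity no second receptor could exceed the limit, and the highest had 4 UMIs. Another receptor was detected in 20 of 42 Olfr1507 neurons, 6 of 11 Olfr1508 neurons and 11 of 30 Olfr1509 neurons, and in 29.5% of all 9791 neurons with an identity. Olfr1372-ps1, a receptor gene named as a pseudogene, was the most frequent second receptor in each of the 3 populations and in the neurons as a whole. It had a UMI in 10 Olfr1507 neurons (23.8%), 3 Olfr1508 neurons (27.3%) and 9 of the 30 Olfr1509 neurons, or 26.5% of the 83, against 606 of 9708 neurons of other receptors (6.24%). It was detected in none of the 40 neurons of Olfr1510, Olfr1511 and Olfr1512. Most of these lay in the Dlg2+ dorsal and main Dorsal clusters, where 0 of 435 and 3 of 1482 neurons outside the 3 members had it. Of 353 populations of at least 10 neurons, 38, 30 and 23 had a higher share than Olfr1507, Olfr1508 and Olfr1509.

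The share with Olfr1372-ps1 differs between clusters, so it was compared within them. This comparison was chosen after the values had been seen. In the Calb2+ ventral cluster, 9 of 39 Olfr1507 neurons had it (23.1%) against 7 of 503 neurons of other receptors (1.39%). In the Ventral cluster, 12 of 41 Olfr1508 and Olfr1509 neurons had it (29.3%) against 465 of 4556 (10.2%). Over the mice, the Olfr1507 share exceeded that of its cluster by 17.0 ± 16.9 points in 3 of 4 mice, and the Olfr1509 share by 21.6 ± 14.6 points in 4 of 4 mice (SD, n = 4). Exact sign-flip tests gave p = 0.25 and p = 0.125, and 0.375 for both after adjustment over 3 comparisons. Olfr1508 was higher in 2 of 3 mice (exact sign-flip test, p = 0.5). Without mouse 2 the pseudogene was detected in 18 of 62 neurons (29.0%), against 6.34% of the neurons of other receptors.

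The other genes of the 3 populations were compared next, on UMIs summed per mouse and population, with receptor genes left out. From here on, a gene's level is in UMIs per 10000 UMIs of the genes tested, after scaling of the sums, which is higher than the share of all UMIs used above for receptors and markers. Ratios and bounds for genes with 0 to 3 UMIs in a population use all UMIs that are not from receptors. Olfr1507 neurons differed from both Olfr1508 and Olfr1509 neurons in many genes, while Olfr1508 and Olfr1509 neurons differed in 1. Of 1321 genes tested with edgeR's quasi-likelihood test with the mouse as a block, at a Benjamini-Hochberg adjusted p under 0.05, 85 (6.43%) differed between Olfr1507 and Olfr1509, 42 (3.18%) between Olfr1507 and Olfr1508, and 1 (0.0757%) between Olfr1508 and Olfr1509. Olfr1508 neurons were few and absent from mouse 3, so that both comparisons with them had 3 mice and 11 neurons on one side. This limits their power, and whether it set the counts of genes was not tested. At an unadjusted p under 0.05 the counts were 234, 197 and 115. When mouse 2 was left out, 69, 30 and 2 genes were called. The 3 tests share populations. Of 42 Olfr1507 neurons, 39 lay in the Calb2+ ventral cluster, while all Olfr1508 and Olfr1509 neurons lay in the main Ventral cluster. Receptor and cluster can therefore not be told apart in the differences between Olfr1507 and the other 2 members. In none of the gene comparisons were Olfr1507 neurons set against other neurons of the Calb2+ ventral cluster alone.

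Between Olfr1507 and Olfr1509, 50 genes were higher in Olfr1507 neurons (3.79% of those tested) and 35 were lower (2.65%). S100a5, a calcium-binding protein whose transcript is known to depend on the activity of the neuron, was among the lower ones. It was at 4.78, 5.06, 7.82 and 12.9 UMIs per 10000 in the Olfr1507 neurons of mice 1 to 4 and at 547, 551, 780 and 412 in their Olfr1509 neurons, and the groups did not overlap (log2 change −6.14 ± 0.30, SE, edgeR adjusted p = 6.5e-09). Pcp4l1, a small neuronal protein, was at 1.20, 1.33, 0.745 and 3.51 against 44.6, 83.0, 109 and 55.0 (log2 change −5.09 ± 0.37, edgeR adjusted p = 8.5e-07). Kirrel2, an adhesion molecule that helps sort axons into glomeruli, was at 0.799 to 2.61 against 9.18 to 19.7 (log2 change −2.82 ± 0.26, edgeR adjusted p = 8.14e-15). Each of these was lower in Olfr1507 neurons of all 4 mice. Lrrc3b and Trim45 were lower as well, by 3.47 and 2.31 on the log2 scale. Rprm had 47 UMIs in Olfr1509 neurons and 0 in Olfr1507 neurons, at least 17.7-fold lower in the latter.

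Other genes were higher in Olfr1507 neurons. Calb2, the calcium-binding protein calretinin that names the cluster of most Olfr1507 neurons, was at 31.4, 37.6, 46.9 and 39.6 UMIs per 10000 in Olfr1507 neurons and at 0 in all 7 sums of Olfr1508 and Olfr1509. Taking 3 UMIs over the group as the floor, it was at least 190-fold higher than in Olfr1509 neurons and at least 59.1-fold higher than in Olfr1508 neurons. Ptn, which encodes the secreted growth factor pleiotrophin, was at 7.77, 13.1, 8.56 and 11.8 in Olfr1507 neurons against 0.874, 1.24, 0.679 and 0.723 in Olfr1509 neurons (log2 change 3.56 ± 0.33, edgeR adjusted p = 8.14e-15). Slurp2, a small secreted protein, was at 5.58 to 11.8 in Olfr1507 neurons, and its 162 UMIs there stood against 2 UMIs in Olfr1509 neurons, a ratio of 71.7 (95% counting interval 19.5 to 597). Neurons of other receptors had 0.0875 UMIs of Slurp2 per 10000. Dcdc2a, Efna3, Cyb5r1, Cpn1 and Ifi27 were also higher in Olfr1507 than in Olfr1509 neurons of all 4 mice, by 1.87, 1.41, 2.18, 3.30 and 1.40 on the log2 scale.

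**Figure D3:**
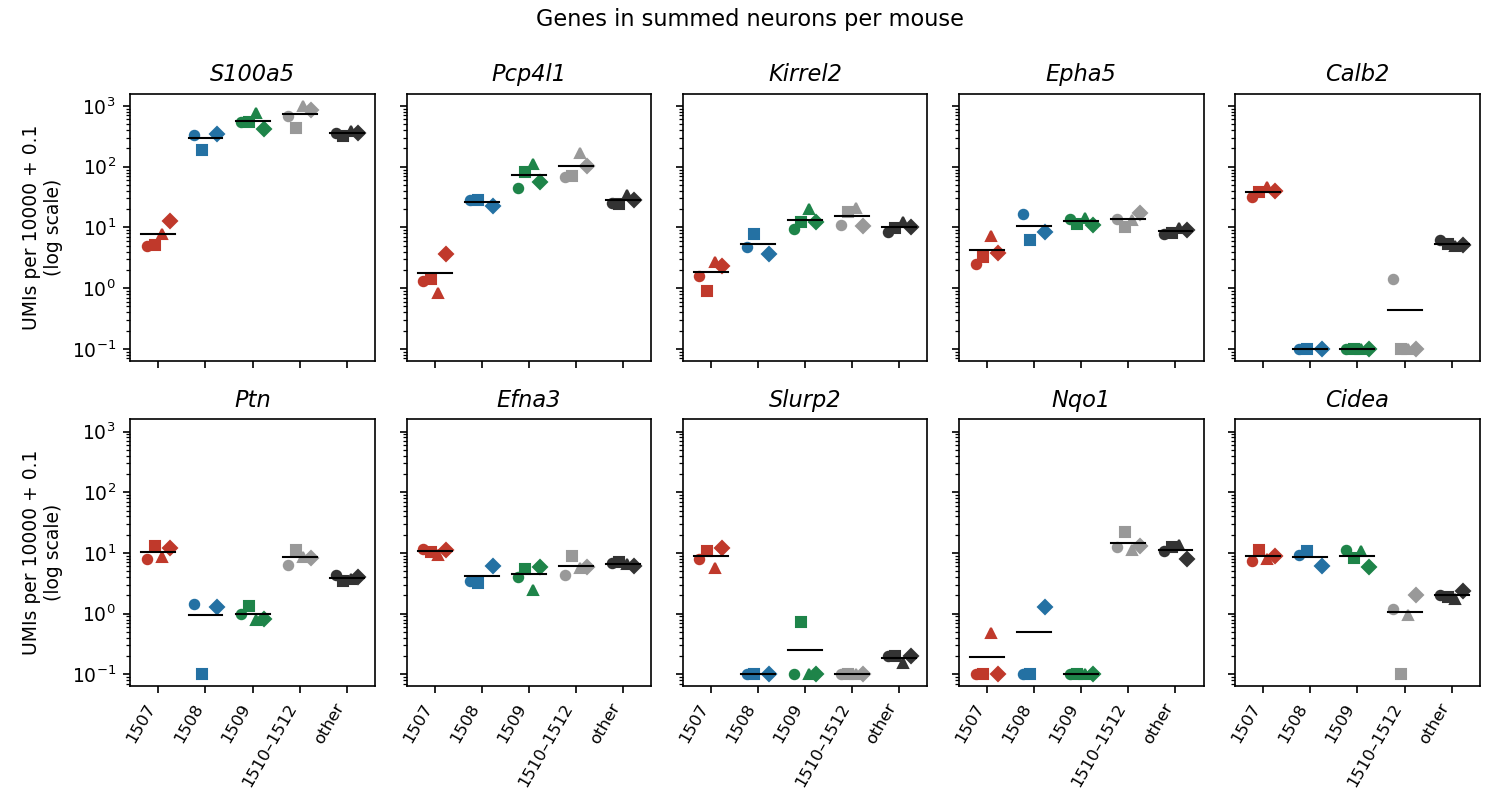
UMIs per 10000 plus 0.1 (log scale) of 10 genes in the summed neurons of each mouse, for Olfr1507, Olfr1508, Olfr1509, the 3 receptors Olfr1510 to Olfr1512 together, and all other receptors, with 1 symbol per mouse (circle, square, triangle and diamond for mice 1 to 4) and a line at the mean. S100a5 lies at 4.78 to 12.9 in Olfr1507 neurons and at 188 or more in Olfr1508 and Olfr1509 neurons, whereas Nqo1 is low and Cidea high in all 3 populations.

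Between Olfr1507 and Olfr1508, the receptors with the most alike coding sequences, 27 genes (2.04%) were higher and 15 (1.14%) lower in Olfr1507 neurons. Among the lower genes were again S100a5, at 338, 188 and 351 UMIs per 10000 in the Olfr1508 neurons of mice 1, 2 and 4 (log2 change −5.26 ± 0.31, edgeR adjusted p = 3.13e-07), and Pcp4l1, at 28.3, 27.8 and 22.4 (log2 change −3.94 ± 0.52, edgeR adjusted p = 0.000862). Both groups lay apart in every mouse. Ptn had 5 UMIs in all Olfr1508 neurons and was higher in Olfr1507 neurons (log2 change 3.30 ± 0.48, edgeR adjusted p = 5.32e-07). Cyb5r1, Slurp2, Cpn1 and Ifi27 were higher in Olfr1507 neurons in this comparison too. Slc8a1, a sodium-calcium exchanger, and Scn4b, a sodium channel subunit, were lower by 3.24 and 2.82 on the log2 scale. Mouse 1 gave 6 of the 11 Olfr1508 neurons, and without that mouse 25 genes were called. The calls of Pcp4l1 and Slc8a1 (edgeR adjusted p = 0.0584 each), Scn4b (0.0815), Cyb5r1 (0.0984), Cpn1 and Ifi27 (0.210 each) were then lost.

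Between Olfr1508 and Olfr1509, Ckb, the brain form of creatine kinase, was the gene called. It was at 62.7, 63.3 and 76.7 UMIs per 10000 in the Olfr1508 neurons of mice 1, 2 and 4 and at 95.6, 108, 110 and 97.6 in Olfr1509 neurons, and the groups did not overlap (log2 change −0.59 ± 0.13, edgeR adjusted p = 0.0352). The call was lost without mouse 1, 2 or 3, at edgeR adjusted p of 0.355, 0.210 and 0.0551, and Ckb in Olfr1507 neurons was at 63.6 to 79.4. Without mouse 2, 2 other genes were called. S100a5 was at 188 to 351 in Olfr1508 neurons and at 412 to 780 in Olfr1509 neurons, without passing the test (log2 change −0.87 ± 0.25, SE, edgeR adjusted p = 0.391).

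Each population was then set against all neurons of other receptors, the same control sums serving all 3 comparisons. Here 222 genes (16.8%) differed for Olfr1507, 26 (1.97%) for Olfr1508 and 112 (8.48%) for Olfr1509, of which 122 (9.24%), 14 (1.06%) and 55 (4.16%) were higher and 100 (7.57%), 12 (0.908%) and 57 (4.31%) lower. The counts were 173, 22 and 93 without mouse 2. Without the block the count for Olfr1508 was 17, and without mouse 1 it was 8. Cidea, a protein of lipid droplets, was higher in each population, at 8.67, 8.57 and 8.82 UMIs per 10000 in Olfr1507, Olfr1508 and Olfr1509 neurons against 1.92 in the others (log2 changes 2.16 ± 0.18, 2.12 ± 0.32 and 2.33 ± 0.18, SE). Its values in single mice were 5.79 to 10.9 in the 3 populations and 1.63 to 2.30 in the others, with no overlap. Tuba4a, an alpha-tubulin, was higher by 2.34, 1.56 and 1.88 on the log2 scale. Without mouse 1 the calls of Cidea and Tuba4a for Olfr1508 were lost, at edgeR adjusted p of 0.107 and 0.170, and that of Tuba4a was also lost without mouse 2 or 4 (0.111 and 0.104).

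Cartpt, the precursor of the CART neuropeptides, and Nqo1, a quinone reductase found in neurons of the dorsal zone, were lower in each population. Cartpt was at 17.0 to 20.3 UMIs per 10000 in neurons of other receptors, at 0.968 in Olfr1507 neurons, at 1 UMI in all Olfr1508 neurons and at 0 in Olfr1509 neurons. The ratio for Olfr1508 was 83.9 (95% counting interval 15.1 to 3314), and in Olfr1509 neurons Cartpt was at least 89.9-fold lower. Nqo1 was at 7.89 to 13.3 in the others, with 1 UMI in Olfr1507 neurons, 1 UMI in Olfr1508 neurons and none in Olfr1509 neurons, which was at least 52.3-fold lower. These differences were recomputed within the ventral zone. When only neurons of ventral clusters served as the others, Cartpt still passed the test in each population and Nqo1 in Olfr1507 and Olfr1509 neurons. Nqo1 in Olfr1508 neurons had an edgeR adjusted p of 0.713, and Acsm4, an acyl-CoA synthetase of the dorsal zone that was at 0 in all 3 populations, had 0.152, 0.759 and 0.255. With only ventral neurons as the others, 188, 14 and 84 genes were called for Olfr1507, Olfr1508 and Olfr1509. With all others, the Olfr1508 calls of Acsm4 without mouse 1 and of Calb2, which was at 0, without mouse 2 were lost as well (edgeR adjusted p of 0.397 and 0.0860).

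Other genes differed from neurons of other receptors in some of the populations, at times in opposite ways. S100a5 and Kirrel2 were lower in Olfr1507 neurons than in neurons of other receptors (log2 changes −5.46 ± 0.29 and −2.45 ± 0.22, SE, edgeR adjusted p of 5.24e-09 and 2.48e-16). In Olfr1509 neurons Pcp4l1 was higher, at 72.9 UMIs per 10000 against 28.0 (log2 change 1.34 ± 0.20, edgeR adjusted p = 0.000760). Calb2 and Ptn were higher in Olfr1507 neurons (log2 changes 2.88 ± 0.12 and 1.48 ± 0.15), whereas Ptn was lower in Olfr1509 neurons (log2 change −2.09 ± 0.34, edgeR adjusted p = 1.25e-06) and Calb2 was at least 25.6-fold lower. Dcdc2a was lower in Olfr1509 neurons, at 6.65 against 15.4 (log2 change −1.48 ± 0.17, edgeR adjusted p = 5.53e-11). Olfr1507 neurons had more Ifi27 and Septin3 and less Tsc22d1 and Tubb3 than neurons of other receptors. Ifi27 was also higher in Olfr1509 neurons (log2 change 1.35 ± 0.25, edgeR adjusted p = 3.64e-05) and Septin3 in Olfr1508 neurons (log2 change 1.26 ± 0.32, edgeR adjusted p = 0.0121), the latter lost without mouse 1 and with ventral neurons as the others (0.577 and 0.125).

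Named gene groups were followed through these comparisons. A first list was drawn up for olfactory transduction, the pathway from receptor to membrane current. It also holds genes that are not steps of that pathway, such as Ckb, Nsg1 and Omp. Of its 19 tested genes, 10 were higher and 2 lower in Olfr1507 neurons than in neurons of other receptors (median log2 change 0.32, against −0.01 over all genes tested, of which 9.24% were higher and 7.57% lower). The higher ones included Adcy3, the adenylyl cyclase, at 22.1 to 29.9 UMIs per 10000 against 14.2 to 17.9, the channel subunits Cnga2 at 16.8 against 11.0 and Cnga4 at 11.8 to 17.9 against 7.38 to 7.65, Ano2, the chloride channel, at 7.12 against 4.49, and Stoml3 at 218 against 126. The Ano2 call was lost without mouse 1 or 2 (edgeR adjusted p of 0.119 and 0.137). Without mouse 1 those of Gnal, Nsg1 and Pde1c were lost too (edgeR adjusted p of 0.0585, 0.0713 and 0.187), which left 6 of the 10. For Olfr1509 5 were higher and 2 lower (4.16% and 4.31% of all genes tested). One of the lower genes was Gnal, the alpha subunit of the olfactory G protein, at 31.7 against 41.0 and lower in 3 of 4 mice, a call lost without mouse 2 or 3 (edgeR adjusted p of 0.134 and 0.0980). Among the higher genes was Ric8b, which encodes a partner of that G protein subunit. Its call was lost without mouse 2, 3 or 4 (edgeR adjusted p of 0.0614, 0.202 and 0.0975) and with ventral neurons as the others (0.0836). Calm2, the other lower gene, lost its call with ventral neurons as the others (0.125). For Olfr1508 1 was higher and 1 lower (1.06% and 0.908% of all genes tested), and both calls were lost without mouse 1, without mouse 4 and with ventral neurons as the others. The higher one was again Ric8b (edgeR adjusted p of 0.550, 0.0823 and 0.0773 under these choices, and 0.0850 without mouse 2). Its log2 change was 0.70 with all data and 0.57 to 0.71 under these choices. Between Olfr1507 and Olfr1509 5 were higher and 1, Ckb, lower (median 0.13, against 0.00 over all genes tested, of which 3.79% were higher and 2.65% lower). Of these, the Cnga2 call was lost without mouse 1 (edgeR adjusted p = 0.205) and that of Gng13, the gamma subunit of the G protein, without mouse 1, 2 or 3 (0.112, 0.0680 and 0.218). Between Olfr1507 and Olfr1508 3 were higher and 0 lower (median 0.29, against 0.02 over all genes tested, of which 2.04% were higher and 1.14% lower), of which the Cnga4 call was lost without mouse 1, 2 or 3 (edgeR adjusted p of 0.549, 0.0714 and 0.0676).

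Of the genes of axon guidance and sorting, 9 of 40 had enough UMIs to be tested. Between Olfr1507 and Olfr1509 1 was higher and 4 lower (median log2 change 0.01, against 0.00 over all genes tested, of which 3.79% were higher and 2.65% lower). Efna3, an ephrin ligand, was at 10.6 in Olfr1507 neurons against 4.34 in Olfr1509 neurons and 4.11 in Olfr1508 neurons, while Epha5, a receptor for ephrins, went the other way, at 4.08 against 12.5 and 10.3 (log2 changes −1.78 ± 0.22 and −1.83 ± 0.30, SE). Pcdh7, a protocadherin, had 2 UMIs in Olfr1507 neurons, with a ratio of 24.3 between Olfr1509 and Olfr1507 neurons (95% counting interval 6.32 to 207). Sema7a, a semaphorin, was lower in Olfr1507 than in Olfr1509 neurons in 3 of 4 mice (log2 change −2.10 ± 0.46) and the call was lost without mouse 1 (edgeR adjusted p = 0.276). The same 1 and 4 genes passed between Olfr1507 and Olfr1508 (median log2 change −1.39, against 0.02 over all genes tested, of which 2.04% were higher and 1.14% lower). In that comparison Efna3 and Epha5 had edgeR adjusted p of 0.287 and 0.612 without mouse 1. Kirrel2 lost that call without mouse 1 or 2 (0.346 and 0.201) and Sema7a without mouse 4 (edgeR adjusted p = 0.107). Nrp2, a receptor for semaphorins, was higher in each of the 3 populations than in neurons of other receptors, at 2.66, 4.93 and 3.29 against 1.18 (edgeR adjusted p of 0.00501, 1.40e-05 and 0.0230). This call was lost for Olfr1507 without mouse 1 or 4 (edgeR adjusted p of 0.0591 and 0.0706), for Olfr1508 without mouse 1 (0.850) and for Olfr1509 without mouse 2 or 4 (0.197 and 0.199). With ventral neurons as the others it was lost for Olfr1507 and Olfr1509 (edgeR adjusted p of 0.0546 and 0.167).

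The activity-related list, drawn up with earlier results of these data known, had 4 of 22 genes tested. All 4, S100a5, Pcp4l1, Kirrel2 and Lrrc3b, were lower in Olfr1507 than in Olfr1509 neurons (median log2 change −4.28) and lower than in neurons of other receptors (median −3.51), where 2.65% and 7.57% of all genes tested were lower. Of the 4, 3 were lower than in Olfr1508 neurons (1.14% of all genes tested), 1 of them without mouse 1, where the calls of Pcp4l1 and Kirrel2 were lost (edgeR adjusted p of 0.0584 and 0.346). None passed the test between Olfr1508 and Olfr1509. Of 6 tested markers of mature neuron subsets, 3 were higher and 1 lower in Olfr1507 than in Olfr1509 neurons (Calb2, Ptn and Cartpt higher, Pcp4l1 lower), against 3.79% and 2.65% of all genes tested. The Cartpt call rested on 17 UMIs in Olfr1507 neurons against 0, in 3 of 4 mice. Both populations lay far below neurons of other receptors in Cartpt, Olfr1507 at 0.968 against 18.6 UMIs per 10000. Among 6 tested genes that mark zones of the epithelium, none passed the test between members, and Cidea, Nfib and Nrp2 were higher and Nqo1 and Acsm4 lower in each population than in the others. Of all genes tested, 9.24%, 1.06% and 4.16% were higher and 7.57%, 0.908% and 4.31% lower in Olfr1507, Olfr1508 and Olfr1509 neurons. Nfix was also higher in Olfr1509 neurons (log2 change 0.69 ± 0.15, SE, edgeR adjusted p = 0.000654), a call lost with ventral neurons as the others (0.430). The Nfib call was lost for Olfr1508 without mouse 1 or 2 (edgeR adjusted p of 0.128 and 0.106) and for Olfr1509 without mouse 1 (0.269), and for both with ventral neurons as the others (0.0773 and 0.275). For receptor choice and trafficking, 11 of 26 genes were tested, and Lhx2 and Rtp1 were higher and Ebf1 lower in Olfr1507 neurons than in neurons of other receptors, where 9.24% and 7.57% of all genes tested were higher and lower. Lhx2 and Ebf1 encode transcription factors that bind receptor enhancers and promoters, and Rtp1 helps receptors to reach the cell surface. Lhx2 was at 11.5 UMIs per 10000 against 7.36, Ebf1 at 9.86 against 18.8, and Ebf1 was also lower in Olfr1509 neurons than in the others, at 13.7, a call lost without mouse 3 (edgeR adjusted p = 0.0934). Between members, Ebf1 was lower in Olfr1507 than in Olfr1509 and Olfr1508 neurons, and these calls were lost without mouse 1, 2 or 4. Rtp1 was higher in Olfr1507 than in Olfr1509 neurons (log2 change 0.72 ± 0.22, SE, edgeR adjusted p = 0.0261), a call lost without mouse 1 or 3 (0.457 and 0.0993).

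Whole transcriptomes were compared as distances between neurons of the same mouse, on the first 15 principal components with receptor genes removed, divided by the mean distance of all pairs with different receptors. A ratio below 1 marks neurons more alike than such pairs. Olfr1507 and Olfr1508 neurons were at 1.02, 1.32 and 1.04 in mice 1, 2 and 4 (mean 1.13 ± 0.168, SD, n = 3), and Olfr1507 and Olfr1509 neurons at 1.10, 1.08, 1.21 and 1.03 in mice 1 to 4 (mean 1.11 ± 0.0767, SD, n = 4). Olfr1508 and Olfr1509 neurons were at 0.739, 1.04 and 0.693 in mice 1, 2 and 4 (mean 0.824 ± 0.189, SD, n = 3). Both pairs with Olfr1507 lay above 1 in each mouse, and the pair without it below 1 in 2 of 3. On log-normalised counts in place of the depth-corrected residuals of SCTransform used here, however, Olfr1507 and Olfr1509 neurons were at 0.953, 0.987, 1.24 and 0.931, below 1 in 3 of 4 mice. Exact sign-flip tests gave p = 0.25, 0.125 and 0.5, and 0.35, 0.2625 and 0.618 after adjustment over 21 pairs. Within a mouse, the distance from Olfr1507 to Olfr1508 was 1.38-fold that from Olfr1508 to Olfr1509, larger in 3 of 3 mice (exact sign-flip test, p = 0.25, the smallest possible).

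**Figure D4:**
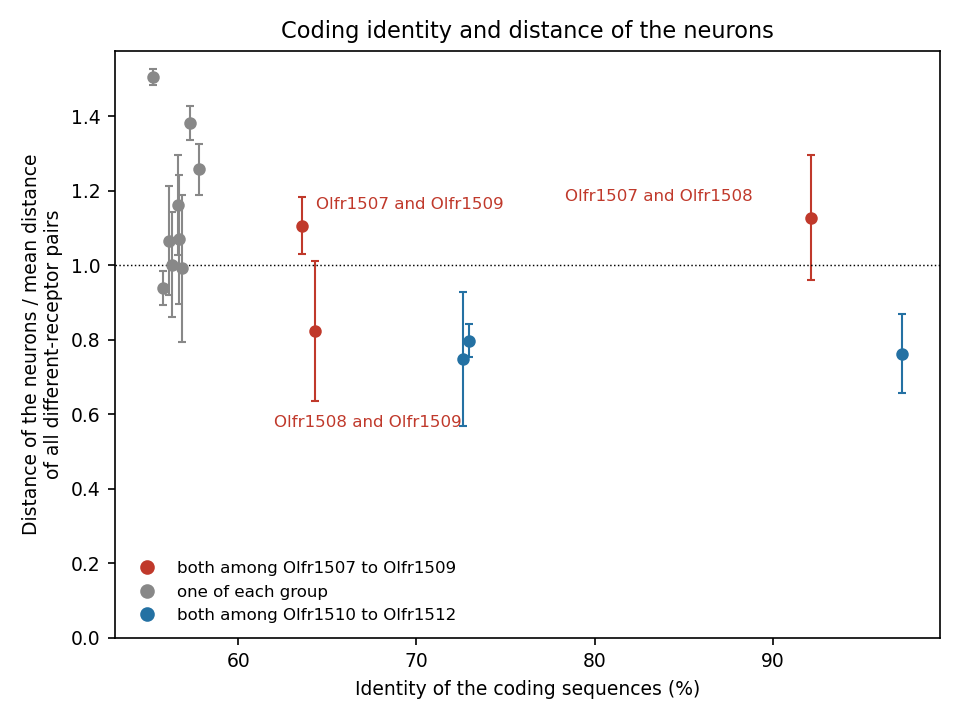
Mean distance between the neurons of 2 receptors relative to all pairs with different receptors (vertical, dotted line at 1, bars are the SD over 3 or 4 mice) against the identity of the 2 coding sequences (%, horizontal) for the 15 pairs among Olfr1507 to Olfr1512. Olfr1507 and Olfr1508 lie at 92.1% identity and a distance of 1.13, whereas Olfr1508 and Olfr1509 lie at 64.3% and 0.824. The most identical pair, Olfr1510 and Olfr1511, lies at 97.3% and 0.763. Olfr1510 and Olfr1512 lie at 72.6% and 0.748, and Olfr1511 and Olfr1512 at 72.9% and 0.797.

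Distances within a receptor were uneven. The distance within Olfr1509 was 0.599 ± 0.0870 and that within Olfr1507 0.781 ± 0.210 (SD, n = 4), against 0.646 over all receptors. Mouse 3, in which 2 of the 7 Olfr1507 neurons lay in the Ventral cluster, was at 1.09, and without it the mean within Olfr1507 was 0.677. Within Olfr1508 the value was 0.985 ± 0.493 (SD, n = 3), which rested on the 2 neurons of mouse 2 at 1.55 and fell to 0.701 without that mouse. It exceeded the distance from Olfr1508 to Olfr1509 in 2 of 3 mice, and in 3 of 3 on log-normalised counts. Without mouse 2 the pair of Olfr1507 and Olfr1508 was at 1.03 and that of Olfr1508 and Olfr1509 at 0.716. Neurons of Olfr1507 were far from those of the next receptors, at 1.38 ± 0.0458 for Olfr1510, 1.26 ± 0.0689 for Olfr1511 and 1.51 ± 0.0213 for Olfr1512, above 1 in 4 of 4 mice each (exact sign-flip test, p = 0.125, adjusted 0.2625). Olfr1509 neurons were nearer to them, at 1.07 ± 0.147, 0.939 ± 0.0458 and 1.00 ± 0.140. Neurons of these next receptors lay mostly in dorsal or Dlg2+ clusters and those of the members in ventral ones. The part of the zone in these distances was not tested.

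The level of each member over 19 deposited cell types and mature neuron clusters was compared with that of every other gene by Pearson's r of the log2 values, as a description. The receptors closest to Olfr1507 were Olfr868, Olfr1442 and Olfr1198 (r = 0.978, 0.976 and 0.967), each highest in the Calb2+ ventral cluster. Those closest to Olfr1508 were Olfr491, Olfr1350 and Olfr1049 (r = 0.993 each), and those closest to Olfr1509 were Olfr1247, Olfr389 and Olfr1416 (r = 0.997, 0.991 and 0.987), all highest in the Ventral cluster. The closest genes that are no receptors were nearly absent, with at most 0.00430 UMIs per 10000 where they were highest. The 19 points come from the same 4 libraries and are not independent.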

How the data were processed

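Dissociated cells of the main olfactory epithelium of 4 mice were sequenced as 1 library per mouse. The authors counted reads with Cell Ranger 6.0.1 on GRCm38, with redrawn 3′ ends of receptor genes, and deposited raw UMI counts per gene and cell, not normalized. They also deposited a cell table with cell types, clusters, receptor identities and the percent of mitochondrial UMIs, a percentage the authors used to remove cells and which served here in the scaling of distances. Cell types, clusters and identities were used as deposited. Of 21809 barcodes, 15859 were retained by the authors and 10519 were mature OSNs.

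Shares and levels were computed per mouse and compared by exact sign-flip tests in Python 3.11.15 with SciPy 1.17.1. UMI sums per mouse and population of at least 2 neurons were tested with edgeR 4.0.16 (quasi-likelihood, TMM, filterByExpr) on R 4.3.3, with the mouse as a block, since populations of the same mouse come from the same animal and library. Deviations of same-mouse sums correlated at −0.0435 to 0.156 (median 0.0283), against a median of −0.00903 between mice. Distances used Seurat 5.3.0 with sctransform 0.4.2. DESeq2 1.42.0 and limma 3.58.1 were alternatives. The edgeR test was tried on simulated counts with known changes in the Olfr1507 sums, for Olfr1507 against Olfr1509 and against neurons of other receptors. Named genes were the 8 with the smallest p per direction among calls with a log2 change of at least 1 in the same direction in every mouse, the called genes of the lists, and the 3 receptors and 3 other genes most like each member. A few others are given where a result turned on them. Genes, lists and tests were chosen with earlier results of these data known. Coordinates and sequences came from the GRCm38 reference, and near-identical receptors may share reads. Intervals are 95% and a count of 0 allows up to 3 counts. Some genes are not reported here.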

Additional observations from a re-analysis of the deposited data

Results flagged for a closer look

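Of 97 groups of 4 values, 10 held a mouse far from the other 3. The limit used flags about 1 in 20 groups of normally distributed values. Where 3 mice are at 0, as for Nqo1 and Slurp2 below, it flags any UMI in the remaining mouse. The 10 can therefore not be read as an excess. In Olfr1509 neurons, 1 mouse stood apart in Herpud1 (14.3 UMIs per 10000 UMIs of tested genes, against a median of 6.27 in the others), Ifi27 (10.1 against 3.72), Ubl3 (9.91 against 14.9), Kcnmb3 (2.89 against 4.03) and Slurp2 (0.620 against 0). In Olfr1507 neurons, 1 mouse stood apart in Trim45 (2.23 against 1.02), Slc8a1 (1.12 against 0.292) and Nqo1 (0.372 against 0, which is a single UMI). The distance between Olfr1507 neurons was 1.09 in mouse 3 against a median of 0.673 in the others. The level of Olfr1511 in its own neurons was 134 UMIs per 10000 in mouse 3 against 110 in the others.

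Members were also detected in the 5950 barcodes that the authors did not retain. Olfr1507 had a UMI in 9 of them (0.151%), up to 38 UMIs, against 0.0566% of Mv2 cells, and Olfr1509 in 7 (0.118%), up to 4 UMIs, against none of the Mv2 cells. Some other types gave higher shares. Olfr1507 had a UMI in 3 of 544 HBC2 cells (0.551%), 1 of 284 immediate neuronal precursors (0.352%) and 1 of 124 Mv1 cells (0.806%). Each of these cells held a single UMI of it. Olfr1507 had none in globose basal, HBC1 and sustentacular cells. Olfr1509 had a single UMI in 1 of 544 HBC2 cells (0.184%) and none in these other types. By the deposited clusters, 4 of the 9 Olfr1507 barcodes lay in clusters with a high mitochondrial share (43 UMIs, among them the 38 of 1 barcode), 4 in immune clusters and 1 in mature OSN clusters. Of the 7 Olfr1509 barcodes, 4 lay in mature OSN clusters and 3 in clusters with a high mitochondrial share.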

How the results depend on the processing

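Receptor levels kept their order under the settings tried except in raw UMIs. Population sizes kept theirs except without mouse 4, where Olfr1509 (0.372%) exceeded Olfr1507 (0.362%). The Olfr1507 share was 0.568% among neurons with at least 2000 genes, Olfr1508 was at 171 UMIs per 10000 in neurons with exactly 1 detected receptor, and its log2 ratio to Olfr1507 was −0.0314 in raw UMIs. Detection in few cells turned direction. Leaving out 1 mouse moved the iOSN2 minus iOSN1 difference from −0.0632 to 0.342 points for Olfr1507 and from −0.105 to 0.129 for Olfr1508, and the iOSN1 minus Mv2 difference of Olfr1508 from −0.117 to 0.105. Without thinning, the Olfr1508 differences were −0.0205 (iOSN2 minus iOSN1), −0.0164 (iOSN2 minus Mv2) and 0.00413 points (iOSN1 minus Mv2).

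Distances near 1 changed side. On log-normalised counts they were 1.24 within Olfr1508, 1.10 from Olfr1508 to Olfr1511, and 1.01 and 1.02 from Olfr1509 to Olfr1511 and Olfr1512. The mean of Olfr1507 to Olfr1509 stayed above 1 on these counts, at 1.03, through mouse 3 (1.24), the other mice lying at 0.931 to 0.987. With 30 components Olfr1508 to Olfr1511 was 1.03 and Olfr1509 to Olfr1512 was 1.01, the latter 1.02 with 10. Without 1 mouse the ranges were 0.701 to 1.14 within Olfr1508, 0.974 to 1.14 from Olfr1508 to Olfr1510, 0.878 to 1.05 from Olfr1508 to Olfr1511, and 0.960 to 1.05 from Olfr1509 to Olfr1512.

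Counts of genes moved more. For Olfr1507 against Olfr1509, limma gave 158 genes and a fit of only those groups 49. For Olfr1507 against Olfr1508 these were 68 and 13, and 25 to 55 without 1 mouse. For Olfr1508 against Olfr1509, DESeq2 gave 0, limma 8 and no filter 3, and 1 to 5 without 1 mouse. Against neurons of other receptors, a fit of only those groups gave 407 for Olfr1507 and 183 for Olfr1509, and DESeq2 gave 68 for Olfr1509. For Olfr1508, no filter gave 56, no replicate block 17, ventral others 14, and 8 to 36 were called without 1 mouse. The cause was not tested. The block changed no other count by over 1.5 times.

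Of 1017 values for 147 named results under other settings, 890 stayed past the threshold, 127 did not and 0 turned direction. Without 1 mouse, 495 of 584 stayed past it and 0 turned. Dropping the replicate block lost 12 of 147 calls. With 4 mice, and 3 for Olfr1508, the sign-flip tests cannot reach 0.05, and 11 Olfr1508 neurons limit each of its results.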
